A study of Mus musculus with 12 samples.

Results

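The levels of 10 Polycomb genes were read in sorted spermatogonia, the dividing germ cells of the testis from which sperm are made. The genes were chosen by symbol (Ezh1, Ezh2, Eed, Suz12, Jarid2, Ring1, Rnf2, Bmi1, Cbx2 and Scml2) from a table of 53715 genes, and all 10 had enough counts to be tested among the 19815 genes that passed the filter on low counts. RNA had been sequenced from mice of a C57BL6/129 background in 4 groups of 3 libraries: Tet1KO at 11 months, WT at 11 months, Tet1KO at 3 months and WT at 3 months. A library held the RNA of 1000 cells from a fluorescence-activated sort, amplified by Smart-seq2, which copies whole transcripts from little RNA. Tet1 encodes an enzyme that oxidises 5-methylcytosine in DNA. The labels name neither the surface markers of the sort nor the exons missing from the Tet1KO allele, and they leave unsaid whether a group's libraries are separate animals. The p-values therefore rest on the spread between these libraries alone, which may be technical.

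Polycomb proteins keep genes silent through modified histones. Polycomb repressive complex 2 (PRC2) methylates histone H3 through EZH1 or EZH2, which work only when bound to EED and SUZ12, and accessory subunits such as JARID2 guide the complex to its sites. Polycomb repressive complex 1 (PRC1) ubiquitinates histone H2A through RING1 or RNF2 (also called RING1B), paired with a PCGF protein such as BMI1, and the CBX subunits of its canonical form bind the methylated histone that PRC2 leaves. In the mouse germ line PRC2 and PRC1 are known to hold developmental and somatic genes silent, and SCML2 is a germline partner of PRC1. TET1 is known to bind CpG-rich promoters and to share many of them with PRC2 in mouse embryonic stem cells.

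Promoter sequences were read for the members, because the CpG content of a promoter is what TET1 is known to read. RefSeq start sites on GRCm38.p6 gave windows of 300 bases, 250 before to 50 after the start, for 9 of the 10 genes, with 2 windows for Jarid2. The windows of the members held from 13 to 41 CpG, against a median of 7 in all 32851 windows, which were not limited to expressed genes. The window of Suz12 (chr11:79992856-79993155, plus strand) held the most, 41 CpG with 71.0% G and C, and 97.0% of all windows held as few or fewer. The window of Ring1, the member with the lowest transcript level, held 37 CpG (chr17:34024631-34024930, minus strand). The window of Scml2, the member with the second highest level per exon length, held the fewest, 13 CpG (chrX:161162500-161162799, plus strand), and 63.7% of all windows held as few or fewer. This start of Scml2 lies inside the longer gene span of the deposited table. The 3 windows follow, 5′ to 3′, with each CpG in capitals.
Suz12: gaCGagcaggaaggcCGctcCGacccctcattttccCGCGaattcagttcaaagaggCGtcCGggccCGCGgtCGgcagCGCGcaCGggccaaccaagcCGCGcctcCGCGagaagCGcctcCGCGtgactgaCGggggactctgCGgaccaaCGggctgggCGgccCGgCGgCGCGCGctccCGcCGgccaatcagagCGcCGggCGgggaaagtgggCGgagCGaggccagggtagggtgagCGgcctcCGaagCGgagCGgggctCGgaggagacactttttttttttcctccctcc
Ring1: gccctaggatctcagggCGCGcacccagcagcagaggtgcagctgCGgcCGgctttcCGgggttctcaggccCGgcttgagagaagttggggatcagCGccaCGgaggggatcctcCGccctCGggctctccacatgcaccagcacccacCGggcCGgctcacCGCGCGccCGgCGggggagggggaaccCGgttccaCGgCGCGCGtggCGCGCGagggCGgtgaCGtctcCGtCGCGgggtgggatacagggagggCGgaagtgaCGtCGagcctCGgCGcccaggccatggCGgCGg
Scml2: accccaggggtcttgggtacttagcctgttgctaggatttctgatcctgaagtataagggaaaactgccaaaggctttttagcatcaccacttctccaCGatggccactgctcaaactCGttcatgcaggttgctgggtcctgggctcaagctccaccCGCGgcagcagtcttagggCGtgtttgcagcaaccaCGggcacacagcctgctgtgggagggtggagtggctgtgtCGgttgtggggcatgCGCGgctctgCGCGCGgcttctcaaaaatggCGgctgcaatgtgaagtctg
The other windows held 31 CpG at Ezh2, 30 at Rnf2, 24 and 23 at the starts of Jarid2, 23 at Ezh1, 23 at Bmi1 and 17 at Eed. The share of all windows with as few or fewer was 80.0% for the 23 CpG of Ezh1 and Bmi1 and 70.3% for the 17 of Eed. Of the E2F words TTTCCCGC, TTTGGCGC, TTTCGCGC and TTTGCCGC, searched on both strands, TTTGGCGC was found at Ezh2 and TTTCCCGC at Suz12. These words were found in 0.514% and 1.07% of all windows, and any of the 4 in 2.26%. The E-box word CACGTG was found at Bmi1 and in 7.15% of all windows. A word match is a description of the letters and not a bound site.

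The libraries held 8325159 to 18223645 counts each, so that a gene with no count may have had up to 3, which is 0.16 to 0.36 counts per 1000000 counts of the library (CPM). Germ cell markers were abundant in every library. Dazl and Ddx4, which encode RNA-binding proteins of germ cells, stood at 1650 to 2500 and 261 to 386 CPM, and Kit, a receptor gene of spermatogonia that differentiate, at 62.1 to 110 CPM. The 6 germ cell markers summed to 2520 to 3020 CPM in Tet1KO and 2710 to 2750 CPM in WT at 11 months, and to 2870 to 3260 CPM in Tet1KO and 2920 to 3220 CPM in WT at 3 months. The 14 markers of undifferentiated spermatogonia summed to 313 to 402 CPM in Tet1KO and 299 to 390 CPM in WT at 11 months. At 3 months they summed to 341 to 439 CPM in Tet1KO and 346 to 372 CPM in WT. The 8 markers of differentiating spermatogonia varied more, from 1100 to 2930 CPM in Tet1KO and 1980 to 2760 CPM in WT at 11 months. At 3 months these 8 summed to 1630 to 3070 CPM in Tet1KO and 1920 to 3610 CPM in WT. Markers of other cells were also read. Prm1, a protamine gene of spermatids, stood at 77.7 to 747 CPM. Of the Sertoli cell genes, Sox9 and Amh stayed at or below 3.86 and 1.07 CPM, while Cst9, Clu and Cst12 reached 163, 105 and 102 CPM. The 12 spermatid markers summed to 2590, 1400 and 488 CPM in Tet1KO and 2760, 568 and 397 CPM in WT at 11 months, and to 716, 2990 and 1030 CPM in Tet1KO and 4450, 1040 and 589 CPM in WT at 3 months. The 16 Sertoli markers summed to 33.2 to 52.1 CPM in Tet1KO and 14.5 to 230 CPM in WT at 11 months, and to 41.6 to 118 CPM in Tet1KO and 114 to 491 CPM in WT at 3 months. The 7 peritubular myoid markers summed to 23.2 to 55.4 CPM in Tet1KO and 72.2 to 244 CPM in WT at 11 months, and to 79.6 to 375 CPM in Tet1KO and 98.6 to 362 CPM in WT at 3 months. The 13 leukocyte markers summed to 508 to 1040 CPM in Tet1KO and 86.6 to 1090 CPM in WT at 11 months, and to 333 to 713 CPM in Tet1KO and 435 to 740 CPM in WT at 3 months. The 10 stroma and Leydig markers summed to 39.7 to 456 CPM in Tet1KO and 12.8 to 663 CPM in WT at 11 months, and to 186 to 500 CPM in Tet1KO and 323 to 580 CPM in WT at 3 months. The part of germ cell stage and of these other cells in the member results was not tested. Replicate 2 of Tet1KO and replicate 1 of WT at 3 months stood apart on the first principal component (39% of the variance), with 30010 and 29420 genes detected, while no other library exceeded 26995. Tet1 itself had 1, 17 and 5 counts in Tet1KO and 1, 16 and 5 counts in WT at 11 months, and 6, 11 and 18 counts in Tet1KO and 15, 16 and 0 counts in WT at 3 months, so counts over the whole gene did not separate the labels.

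The 10 genes spanned a wide range of levels, read here per annotated exon length of the gene (TPM, scaled so that all genes of a library sum to 1000000). Eed, the core PRC2 subunit that binds the methylated histone, was highest, at 128 ± 11.4 TPM (SD over the 12 libraries). Scml2 followed at 95.8 ± 13 TPM, Bmi1 at 82.7 ± 9.82 TPM, Suz12 at 82.1 ± 10.2 TPM and Rnf2 at 72.8 ± 11.2 TPM. Lower were Ezh2 at 18.8 ± 2.91 TPM, Jarid2 at 14.5 ± 2.89 TPM, Cbx2 at 10.4 ± 3.53 TPM, Ezh1 at 9.63 ± 1.70 TPM and Ring1 at 1.61 ± 0.532 TPM. Eed was above 93.8% of tested genes in TPM, and Ring1 above 23.5%. The ranges of neighbours in this order were apart at 2 places, between Rnf2 (57.9 to 91.8 TPM) and Ezh2 (14.8 to 24.1 TPM) and between Ezh1 (6.99 to 12.0 TPM) and Ring1 (0.862 to 2.48 TPM). Within libraries, Eed was above Scml2, Scml2 above Bmi1, Ezh2 above Jarid2 and Jarid2 above Cbx2 in 12 of 12. Parts of this order rest on the exon length, which need not be that of the transcripts present. In mean CPM, with no length, Scml2 (312) stood above Eed (262) and Jarid2 (74.8) above Ezh2 (67.1). Bmi1 was above Suz12 in 7 of 12 libraries, Suz12 above Rnf2 in 10 and Cbx2 above Ezh1 in 6, so the places of Bmi1 and Suz12, and of Cbx2 and Ezh1, could not be told apart.

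**Figure D1:**
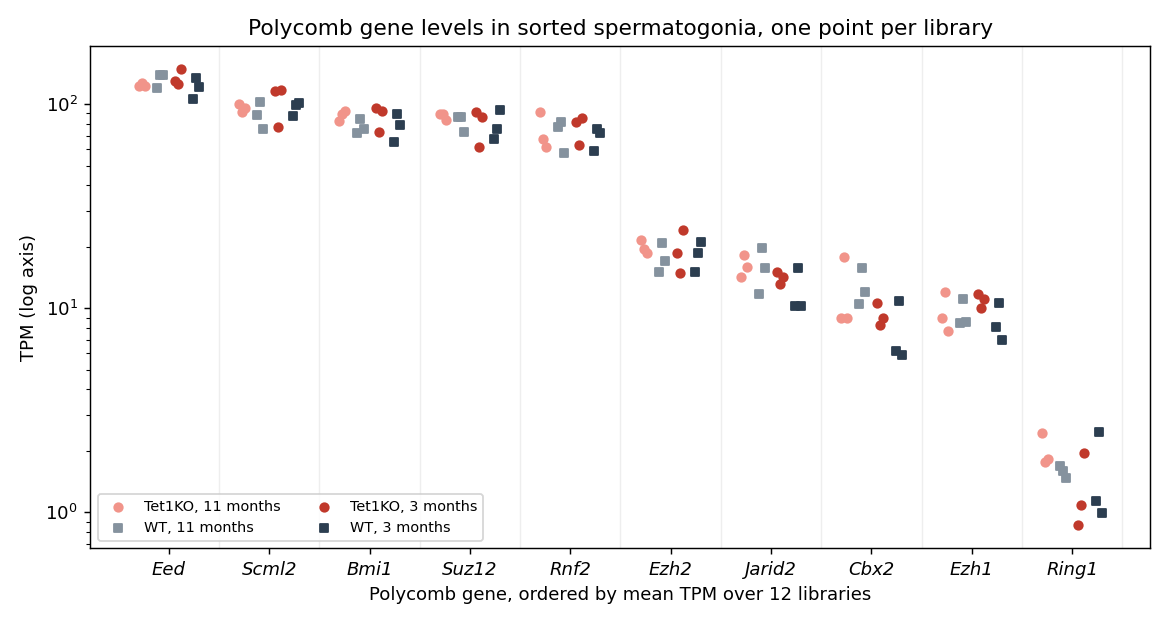
Levels of the 10 Polycomb genes in TPM on a log axis, 1 point per library, for Tet1KO and WT at 11 and at 3 months, ordered by the mean over 12 libraries. Eed, Scml2, Bmi1, Suz12 and Rnf2 lie between 57.9 and 149 TPM, Ezh2, Jarid2, Cbx2 and Ezh1 between 5.88 and 24.1 TPM, and Ring1 at or below 2.48 TPM.

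The spread over libraries also differed between members. Ezh1 varied least, with a coefficient of variation of 9.86% in CPM over the 12 libraries, and 3.69% of the 2140 genes of like level (within 0.5 log2 CPM) varied less. Eed varied by 10.7%, with 20.7% of genes of like level below it. Ezh2, Suz12, Jarid2, Scml2, Rnf2 and Bmi1 varied by 13.7% to 17%, close to the middle of genes of like level (44.7% to 62.0% varied less). Cbx2 varied by 25.1%, with 72.4% of genes of like level below it. Ring1 varied by 31.7% on counts of 14 to 67 per library, where counting error is large, and 20.1% of the 2388 genes of like level varied less.

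PRC2 and PRC1 each hold positions that related proteins can fill in place of each other. In each of the pairs compared, the same gene was the more abundant transcript in all 12 libraries. Ezh2, the methyltransferase linked to dividing cells, was above Ezh1 by 1.48 to 3.02 times in TPM (median 1.87). Rnf2 was above Ring1 by 30.3 to 94.4 times (median 44.6). Bmi1 was above Pcgf2, its paralog in canonical PRC1, by 9.08 to 20.7 times (median 12.6), and other PCGF genes, those of variant PRC1, are treated below. Rbbp7, a histone-binding PRC2 subunit, was above its paralog Rbbp4 by 12.6 to 19.6 times (median 16.9). The log2 ratio of Ezh1 to Ezh2 was -1.08 ± 0.33 in Tet1KO and -0.92 ± 0.07 in WT at 11 months, and -0.78 ± 0.30 in Tet1KO and -1.10 ± 0.43 in WT at 3 months (SD, n = 3). The groups overlapped at both ages. That of Ring1 to Rnf2 was -5.19 ± 0.09 in Tet1KO and -5.50 ± 0.19 in WT at 11 months, and -5.95 ± 0.56 in Tet1KO and -5.60 ± 0.63 in WT at 3 months. At 11 months its 3 Tet1KO values (-5.25 to -5.09) lay above the 3 WT values (-5.69 to -5.30), on low counts of Ring1 and with no test. Neither Ring1 nor Rnf2 alone set these groups apart, and how many other gene ratios would do so was not read. At 3 months the groups overlapped. The log2 ratio of Bmi1 to Pcgf2 was 3.79 ± 0.51 in Tet1KO and 3.51 ± 0.36 in WT at 11 months, and 3.88 ± 0.13 in Tet1KO and 3.68 ± 0.49 in WT at 3 months.

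**Figure D2:**
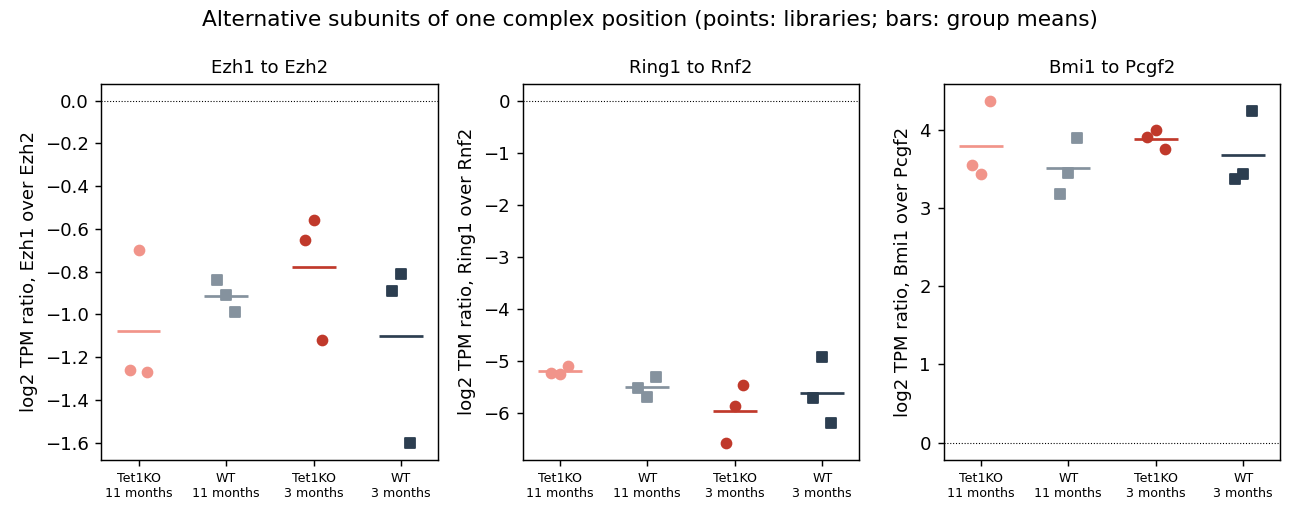
Log2 TPM ratios of alternative subunits (Ezh1 over Ezh2, Ring1 over Rnf2, Bmi1 over Pcgf2), 1 point per library with the group mean as a bar, for Tet1KO and WT at 11 and at 3 months. All 12 libraries lie on 1 side of 0 for each pair, with Ezh1 over Ezh2 between -1.60 and -0.56.

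The first question was whether loss of Tet1 changes these transcripts. No member passed the test. Tet1KO was set against WT in a single edgeR quasi-likelihood model over the 12 libraries, with Benjamini-Hochberg adjustment over all 19815 tested genes, and 0 genes (0%) passed an adjusted p of 0.05 at either age or on their average. At 11 months 8 members had higher and 2 lower estimates in Tet1KO (53.8% of all genes were higher), with a median log2 fold change of 0.06 (0.02 over all genes), and none of the 10 reached an unadjusted p of 0.05, against 1.65% of all genes. At 3 months 6 were higher and 4 lower (46.8% of all genes were higher), with a median of 0.03 (-0.02 over all genes), and none reached an unadjusted p of 0.05, against 1.14%. No member had groups that did not overlap, against 5.36% of genes at 11 months and 6.94% at 3 months. Averaged over both ages, 8 were higher and 2 lower (51.2% of all genes were higher), with a median of 0.04 (0.00 over all genes), and again none reached an unadjusted p of 0.05, against 1.43%. With DESeq2, 3, 2 and 2 genes of the whole table passed an adjusted p of 0.05 at 11 months, at 3 months and on average, and none was a member. A miss of the threshold does not show that the genotypes were alike, and the intervals say how large a difference the data leave possible. For the 9 members other than Ring1, the 95% intervals of the average over both ages lay within 0.787 and 1.30 fold, those of 11 months within 0.632 and 1.54 fold, and those of 3 months within 0.671 and 1.62 fold. For Ring1 the interval of the average ran from 0.625 to 1.62 fold. In bulk libraries such as these, fewer cells of a type and less RNA per cell cannot be told apart.

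**Figure D3:**
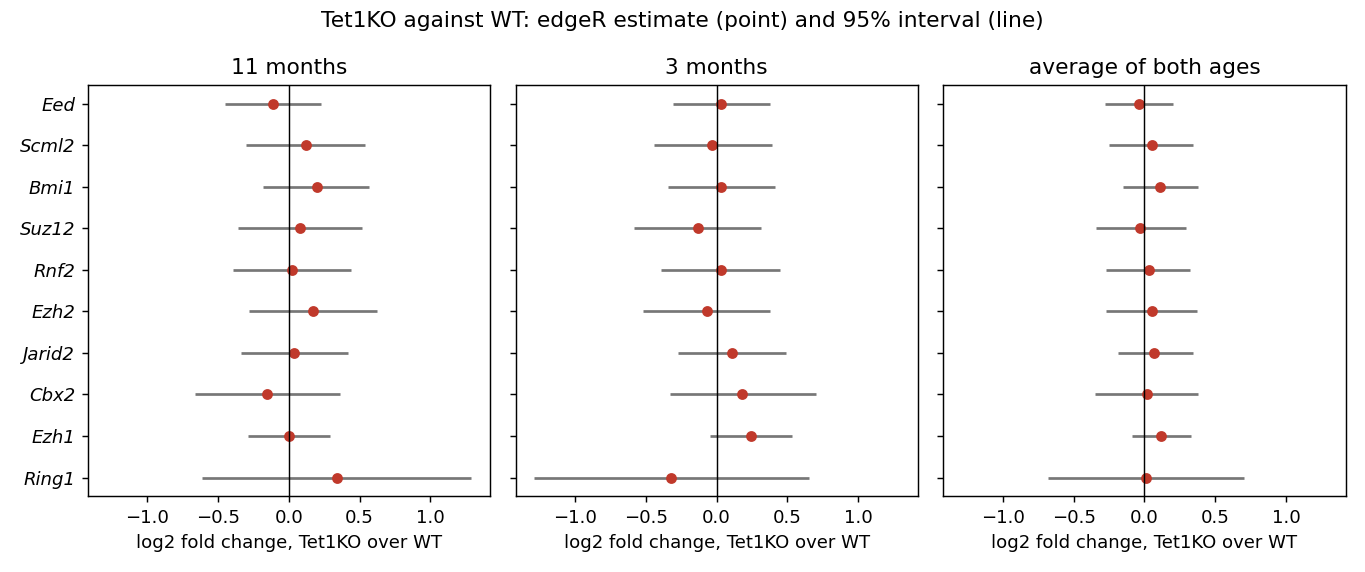
Log2 fold changes of the 10 members, Tet1KO over WT, at 11 months, at 3 months and averaged over both ages, with the edgeR estimate as a point and the 95% interval as a line. Every interval crosses 0, and that of Ring1 is the widest in each panel.

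Among the PRC2 enzymes, Ezh1 (ENSMUSG00000006920.14, chr11:101191115-101226463, minus strand, mm10) had 34.8, 39.2 and 35.8 CPM in Tet1KO and 34.6, 38.3 and 36.8 CPM in WT at 11 months. It had 45.6, 39.6 and 42.4 CPM in Tet1KO and 34.8, 40.4 and 32.6 CPM in WT at 3 months. The groups overlapped at both ages, at 3 months through WT replicate 2 (40.4 CPM) and Tet1KO replicate 2 (39.6 CPM). The log2 fold change at 3 months was 0.24 ± 0.13 (SE), with an unadjusted p of 0.0961, an adjusted p of 1 in edgeR and an exact two-sided permutation p of 0.2, where 0.1 is the smallest that 3 against 3 libraries allow. With each library left out in turn it was 0.20 to 0.34, and the unadjusted p in edgeR was 0.0435 without WT replicate 2 of 3 months and 0.0845 to 0.249 without any of the others. Ezh2 (ENSMUSG00000029687.16, chr6:47530139-47595341, minus strand), the enzyme gene of most PRC2 in dividing cells, had 74.8, 57.0 and 77.7 CPM in Tet1KO and 55.8, 64.7 and 65.7 CPM in WT at 11 months. At 3 months it had 64.4, 52.5 and 82.9 CPM in Tet1KO and 58.0, 63.6 and 88.4 CPM in WT. Neither age set the genotypes apart, with log2 fold changes of 0.17 ± 0.21 at 11 months and -0.07 ± 0.21 at 3 months.

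No core or accessory gene of PRC2 passed the test between genotypes. Eed (ENSMUSG00000030619.9, chr7:89954654-89980983, minus strand) averaged 249 ± 40.1 CPM in Tet1KO and 269 ± 32.0 CPM in WT at 11 months, and 269 ± 22.3 CPM in Tet1KO and 263 ± 28.3 CPM in WT at 3 months (SD, n = 3). Suz12 (ENSMUSG00000017548.15, chr11:79993106-80034123, plus strand), which stabilises the complex, averaged 226 ± 32.5 CPM in Tet1KO and 214 ± 20.5 CPM in WT at 11 months, and 206 ± 38.9 CPM in Tet1KO and 225 ± 57.2 CPM in WT at 3 months. Jarid2 (ENSMUSG00000038518.15, chr13:44729474-44921643, plus strand), the accessory subunit that recruits PRC2, averaged 82.0 ± 13 CPM in Tet1KO and 79.8 ± 14.5 CPM in WT at 11 months, and 71.3 ± 3.73 CPM in Tet1KO and 66.2 ± 10.4 CPM in WT at 3 months. For all 3 genes and both ages, the means of the genotypes differed by less than the larger of their SDs, and the groups overlapped. Between same-numbered libraries of 11 months, Eed was lower in Tet1KO in 3 of 3 (242 against 254, 213 against 247 and 292 against 305 CPM). The fit with the replicate number as a block gave Eed a log2 fold change of -0.12 with an unadjusted p of 0.295 in edgeR. Eed and Ring1 were the only members to go 1 way in 3 of 3, and were picked for it. The share of all genes that do so was not read. Exons of genes on the opposite strand overlap 2.6% of the exon bases of Ezh2 (Gm26625), 6.8% of Eed (E230029C05Rik), 3.6% of Suz12 (Gm26563) and 3.8% of Rnf2 (Trmt1l), and counting without strand cannot tell their reads apart.

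Among the PRC1 members, Rnf2 (ENSMUSG00000026484.13, chr1:151458004-151500955, minus strand), the main ubiquitin ligase gene, averaged 159 ± 37.5 CPM in Tet1KO and 157 ± 18.9 CPM in WT at 11 months, and 165 ± 23.1 CPM in Tet1KO and 161 ± 23.1 CPM in WT at 3 months. Its paralog Ring1 (ENSMUSG00000024325.8, chr17:34020792-34024680, minus strand) had 4.13, 2.51 and 3.68 CPM in Tet1KO and 3.03, 2.39 and 2.74 CPM in WT at 11 months, and 1.45, 1.89 and 3.27 CPM in Tet1KO and 2.12, 4.10 and 2.01 CPM in WT at 3 months. These groups overlapped at both ages, and the log2 fold changes of 0.34 ± 0.44 at 11 months and -0.32 ± 0.44 at 3 months had the largest errors of the 10. Between same-numbered libraries of 11 months Ring1, picked for this as Eed was, was higher in Tet1KO in 3 of 3. With the block its log2 fold change was 0.31, with an unadjusted p of 0.463 in edgeR. Bmi1 (ENSMUSG00000026739.13, chr2:18677018-18686629, plus strand), a PCGF subunit gene known for its part in stem cell renewal, had 171, 156 and 230 CPM in Tet1KO and 158, 156 and 172 CPM in WT at 11 months, and 198, 155 and 189 CPM in Tet1KO and 150, 183 and 197 CPM in WT at 3 months. At 11 months its log2 fold change was 0.20 ± 0.17, with an unadjusted p of 0.277 and an adjusted p of 1 in edgeR, and 1 library of Tet1KO (230 CPM) stood above the rest. Scml2 (ENSMUSG00000000037.16, chrX:161117193-161258213, plus strand), the germline partner of PRC1, had 315, 244 and 362 CPM in Tet1KO and 297, 286 and 263 CPM in WT at 11 months, and 365, 249 and 367 CPM in Tet1KO and 306, 308 and 383 CPM in WT at 3 months. The groups overlapped at both ages.

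The library codes at 3 months carry 2 prefixes, AK and DY, whose meaning the labels do not give, and every library of 11 months carries AK. Within AK at 3 months (2 libraries per genotype) the Tet1KO minus WT difference in log2 CPM was 0.28 for Ezh1, -0.12 for Ezh2, 0.07 for Eed, -0.33 for Suz12, 0.20 for Jarid2, 0.25 for Ring1, -0.02 for Rnf2, -0.01 for Bmi1, 0.31 for Cbx2 and -0.18 for Scml2. Within DY (1 library per genotype) it was 0.17 for Ezh1, 0.02 for Ezh2, -0.03 for Eed, 0.30 for Suz12, -0.05 for Jarid2, -1.41 for Ring1, 0.13 for Rnf2, 0.11 for Bmi1, -0.01 for Cbx2 and 0.24 for Scml2. In the 2 libraries that stood apart, Bmi1 stood at 155 CPM (Tet1KO replicate 2) and 150 CPM (WT replicate 1), both below the other 10 libraries (156 to 230 CPM). One of the 2 lay below those 10 for Ezh2 (52.5 CPM), Suz12 (161 CPM), Jarid2 (58.1 CPM) and Cbx2 (15.1 CPM), and neither lay above them for any member. The share of all genes that lie outside those 10 in these 2 libraries was not read.

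The second question was age, 11 against 3 months within each genotype. In WT, Cbx2 (ENSMUSG00000025577.7, chr11:119022962-119031270, plus strand), a PRC1 subunit gene that reads the methylated histone and is known for its role in mouse gonad development, stood at 24.7, 31.2 and 29.5 CPM at 11 months and 15.1, 23.5 and 15.7 CPM at 3 months. The 3 libraries of 11 months were all above the 3 of 3 months. The log2 fold change was 0.65 ± 0.24 (95% interval 0.14 to 1.17), with an unadjusted p of 0.0176 and an adjusted p of 0.774 in edgeR, so Cbx2 did not pass the test. It was the 1 of 10 members at an unadjusted p under 0.05, against 5.67% of all genes, and 2 of 10 members did not overlap between ages, against 11.5%. The unadjusted p of Cbx2 was above 0.05 without WT replicate 1 (0.0682) or replicate 3 (0.0565) of 3 months or WT replicate 2 of 11 months (0.0536), and without both libraries that stood apart (log2 fold change 0.53, unadjusted p 0.0747 in edgeR). With the code prefix as a covariate it was 0.83, with an unadjusted p of 0.00396 in edgeR. In the same comparison 12 of 12 spermatid markers (median log2 fold change -0.59) and 13 of 14 tested Sertoli markers (median -1.14) had lower estimates at 11 months, none past the adjusted threshold, and their part in the value of Cbx2 was not tested. In Tet1KO, Cbx2 stood at 19.8, 33.2 and 23.8 CPM at 11 months and 23.4, 18.7 and 19.7 CPM at 3 months. These overlapped, with a log2 fold change of 0.31 ± 0.23, and the age effects of the genotypes were not shown to differ (interaction -0.34 ± 0.33, 95% interval -1.06 to 0.39, adjusted p of 1 in edgeR).

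**Figure D4:**
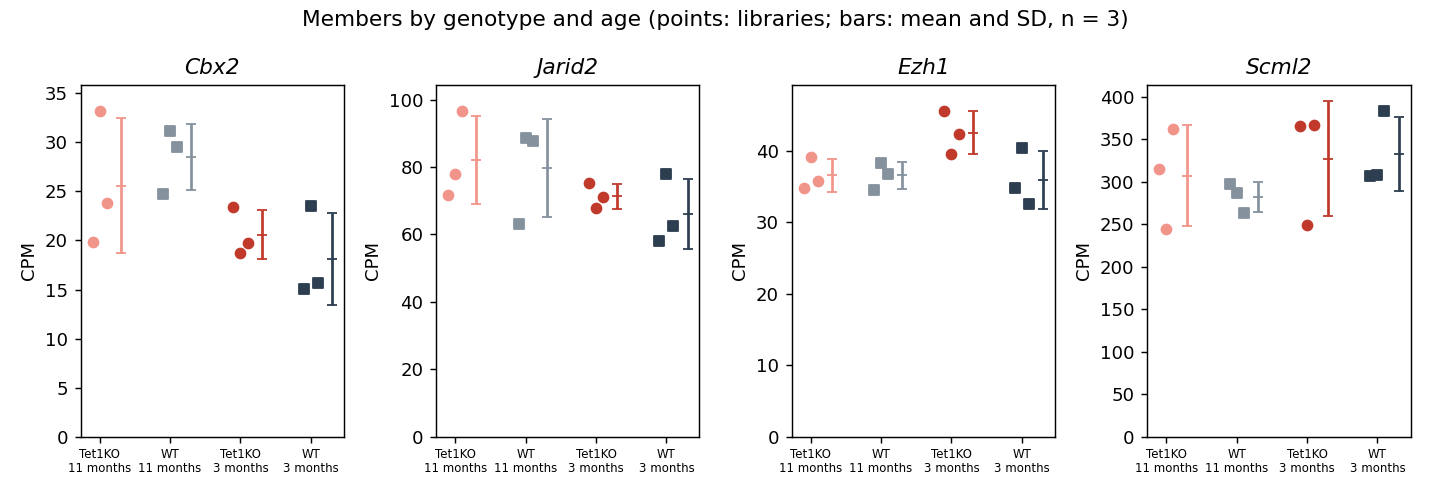
Levels in CPM of Cbx2, Jarid2, Ezh1 and Scml2, 1 point per library with the mean and SD of each group of 3, for Tet1KO and WT at 11 and at 3 months. The WT libraries of Cbx2 lie at 24.7 to 31.2 CPM at 11 months and 15.1 to 23.5 CPM at 3 months.

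The other members differed less between ages in WT. Scml2 was the second gene without overlap, with 263 to 297 CPM at 11 months and 306 to 383 CPM at 3 months, and its log2 fold change of -0.24 ± 0.19 did not pass the test (unadjusted p of 0.240, adjusted p of 0.821 in edgeR). Jarid2 had 63.0, 88.7 and 87.6 CPM at 11 months and 58.1, 77.9 and 62.5 CPM at 3 months in WT, a log2 fold change of 0.27 ± 0.17. It reached an unadjusted p of 0.0345 in edgeR, with a log2 fold change of 0.43, without WT replicate 1 of 11 months. Over the 10 members, 4 were higher and 6 lower at 11 months in WT (43.6% of all genes were higher), with a median of -0.03 (-0.06 over all genes). In Tet1KO, 6 were higher and 4 lower (48% of all genes were higher), with a median of 0.05 (-0.01 over all genes), and none reached an unadjusted p of 0.05, against 2.33% of genes. Ezh1 was the 1 member without overlap there, against 6.2% of genes, with 34.8 to 39.2 CPM at 11 months and 39.6 to 45.6 CPM at 3 months, and its log2 fold change of -0.22 ± 0.13 did not pass the test (unadjusted p of 0.132, adjusted p of 1 in edgeR). The interval of Ring1 in Tet1KO was wide, 0.65 ± 0.44. No gene of the table passed the adjusted threshold in either age comparison with edgeR (0%), and DESeq2 called 7 genes in Tet1KO, none of them a member. In the interaction of genotype and age, none of the 10 reached an unadjusted p of 0.05, against 1.57% of genes.

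The other genes of the pathway gave the setting of the 10. Of 56 further Polycomb genes in 6 lists (other PRC2 subunits, other canonical PRC1 subunits, variant PRC1 subunits, the H2A deubiquitinase complex PR-DUB, the H3K27 demethylases, and PhoRC with other MBT genes), 55 passed the filter on low counts, L3mbtl1 being the exception. Rbbp7 was the most abundant, at 296 TPM, followed by Yaf2, a variant PRC1 subunit, at 135 TPM, and Mtf2, an accessory PRC2 subunit that binds CpG-rich DNA, at 87.6 TPM. Its relative Phf19 stood at 0.373 TPM. Ezhip (AU022751 in the symbol table), an inhibitor of PRC2 known from germ cells, stood at 15.8 TPM. The PCGF genes of variant PRC1 were Pcgf1 at 64.5 TPM, Pcgf5 at 49.1 TPM, Pcgf6 at 22.4 TPM and Pcgf3 at 13.8 TPM. All lay below Bmi1 and above Pcgf2 (6.44 TPM) in mean TPM. In mean CPM, with no length, Pcgf5 (332) stood above Bmi1 (176). Cbx2, with a mean of 10.4 TPM, lay above its paralogs Cbx8 at 6.84 TPM, Cbx7 at 1.65 TPM and Cbx6 at 0.554 TPM in mean level. The demethylase genes Kdm6b, Uty and Kdm6a stood at 9.58, 7.53 and 7.41 TPM.

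**Figure D5:**
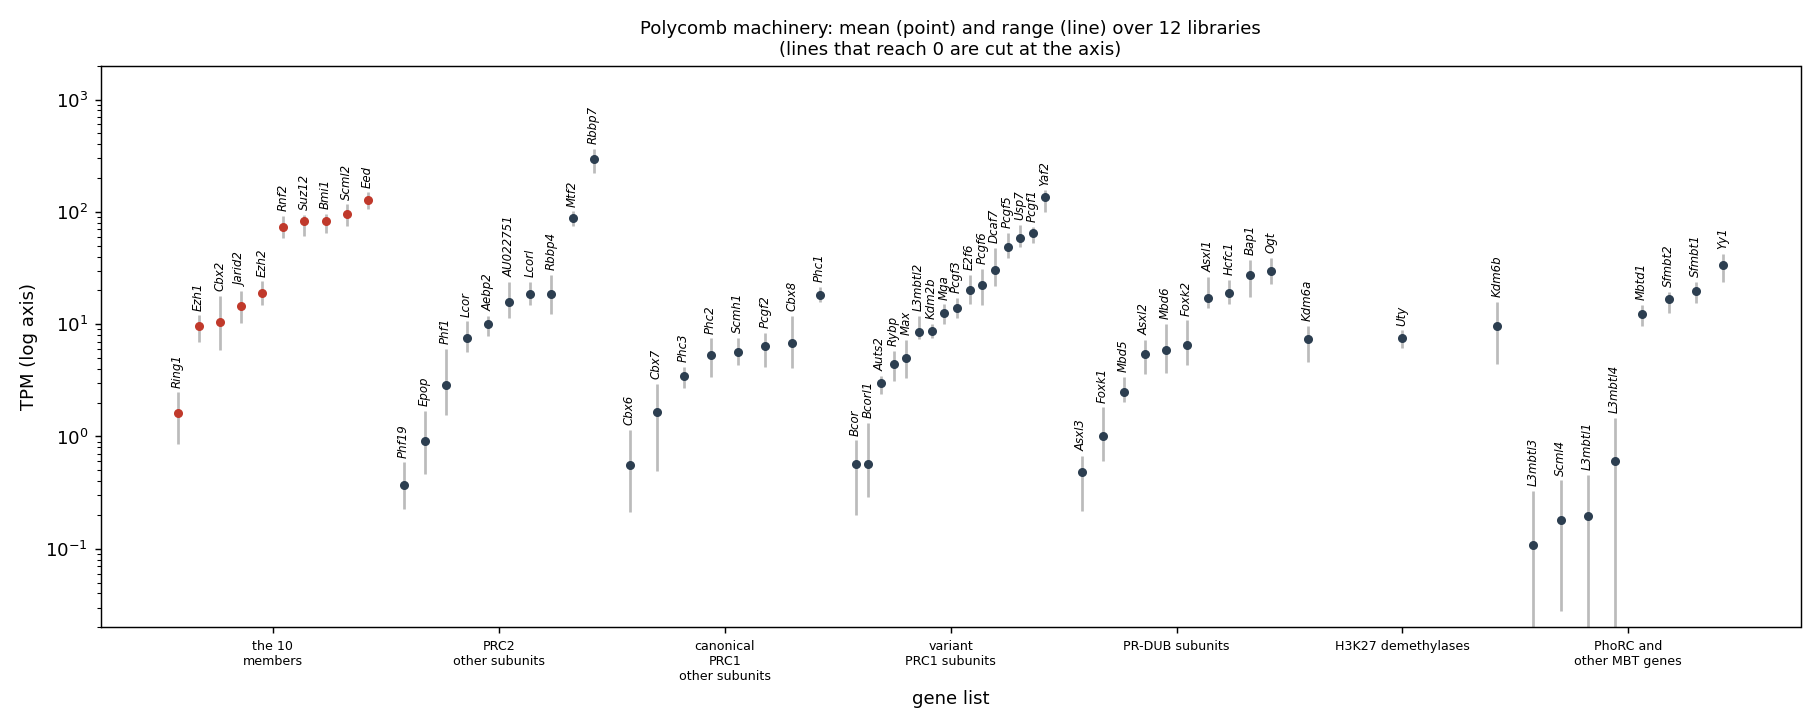
Mean TPM (point) and range (line) over 12 libraries, on a log axis, of the 10 members and of 55 other Polycomb genes grouped by complex. Rbbp7 is highest at 296 TPM, and Ring1 is the lowest of the 10 at 1.61 TPM.

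None of the 55 genes passed the adjusted threshold in any comparison. At 11 months 31 were higher and 24 lower in Tet1KO (53.8% of all genes were higher), with a median log2 fold change of 0.04 (0.02 over all genes) and 3 genes at an unadjusted p under 0.05, against 1.65% of all genes. At 3 months 24 were higher and 31 lower (46.8% of all genes were higher), with a median of -0.03 (-0.02 over all genes) and 2 such genes, against 1.14%. The genes with the smallest p are given as values, since none passed. Foxk1, a forkhead factor gene linked to PR-DUB, had 4.86, 4.72 and 8.61 CPM in Tet1KO and 2.52, 2.80 and 2.96 CPM in WT at 11 months. Its log2 fold change was 1.13 ± 0.33, with an unadjusted p of 0.00535 and an adjusted p of 1 in edgeR, and at 3 months it had 3.62, 3.40 and 3.75 CPM in Tet1KO and 3.55, 4.92 and 3.49 CPM in WT. Asxl3, a PR-DUB subunit gene, had 2.09, 3.72 and 2.09 CPM in Tet1KO and 4.16, 4.84 and 5.81 CPM in WT at 11 months, a log2 fold change of -0.91 ± 0.35. Rbbp7 had 451, 393 and 399 CPM in Tet1KO and 527, 490 and 505 CPM in WT at 11 months, a log2 fold change of -0.29 ± 0.13 (unadjusted p of 0.0396, adjusted p of 1 in edgeR). These 3 genes were picked for their p, and their groups did not overlap at 11 months, as was so for 5.36% of all genes. In that comparison 7 of 7 peritubular myoid markers (median log2 fold change -1.98, 6 at an unadjusted p under 0.05) and 13 of 14 tested Sertoli markers (median -1.32) had lower estimates in Tet1KO, and 13 of 13 leukocyte markers higher ones (median 0.74), none past the adjusted threshold. Their part in these values was not tested.

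At 3 months Cbx7, a paralog of Cbx2, had 7.85, 10.1 and 6.83 CPM in Tet1KO and 4.23, 4.41 and 2.01 CPM in WT, which gave a log2 fold change of 1.21 ± 0.41 (unadjusted p of 0.0119, adjusted p of 1 in edgeR). At 11 months it had 3.69, 7.03 and 6.18 CPM in Tet1KO and 3.41, 6.94 and 4.28 CPM in WT, where the genotypes overlapped. Averaged over both ages its log2 fold change was 0.71 ± 0.28 (unadjusted p of 0.0293, adjusted p of 1 in edgeR), ahead of Foxk1 at 0.49 ± 0.23 and Asxl3 at -0.43 ± 0.25. Scmh1, a Polycomb gene of the same MBT family as Scml2, had 24.5, 25 and 28.8 CPM in Tet1KO and 21.3, 19.8 and 20.9 CPM in WT at 3 months, a log2 fold change of 0.34 ± 0.15 that did not pass the test. Lcor, a PRC2 accessory gene, had the third smallest p at 3 months, with a log2 fold change of -0.50 ± 0.28. At 3 months 14 of 14 tested Sertoli markers had lower estimates in Tet1KO (median log2 fold change -1.77, 5 at an unadjusted p under 0.05 in edgeR). So did 12 of 13 leukocyte and 10 of 12 spermatid markers, while 5 of 7 peritubular myoid markers were higher. On the average 14 of 14 Sertoli markers were lower (median -1.55, 9 at such a p). None passed the adjusted threshold, and their part in these values was not tested.

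The Hox genes, which specify position along the body axis and are textbook targets of Polycomb silencing, were close to silent. Of 39 genes, 36 had a mean under 1 TPM, 4 (Hoxa6, Hoxb8, Hoxc11 and Hoxd12) had no count in any of the 12 libraries, and 5 passed the filter on low counts. None of the 5 passed the adjusted threshold in any comparison. Hoxa4 had the highest mean, at 6.77 TPM, and was chosen for its values. It had 1.72, 7.13 and 1.34 CPM in Tet1KO and 3.66, 0.642 and 0.767 CPM in WT at 11 months, and 1.55, 26.3 and 2.21 CPM in Tet1KO and 17.7, 4.82 and 1.07 CPM in WT at 3 months. Its 2 highest values were in the 2 libraries that stood apart. Hoxa4 shares 16% of its exon bases with Gm29430 on the opposite strand.

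Genes whose pattern over the 12 libraries was nearest to a member are given as a description, by Pearson's r of log2 CPM among 7834 genes of a mean log2 CPM of at least 4. These points share library composition and depth. Nearest to Scml2 were Dazl (r = 0.95), Ptbp2, a splicing factor gene (r = 0.94), and Slmap (r = 0.94), where the median r of all genes was 0.16. Nearest to Bmi1 were Zfp711 (r = 0.94), Hnrnpul2 (r = 0.90) and Cop1 (r = 0.90), with a median of 0.19. Nearest to Ezh2 were Daglb (r = 0.93) and S100pbp (r = 0.92), with a median of 0.20. Among the 45 pairs of members the median r was 0.24 and 30 pairs were above 0. Suz12 with Scml2 and Ezh2 with Scml2 had the highest r, 0.78 each, and Cbx2 with Scml2 the lowest, -0.48.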

How the data were processed

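The authors deposited 1 table of raw, whole-number counts with 53715 genes and 12 libraries. The file headers name featureCounts 1.6.2 and GENCODE vM17 (paired fragments, quality of at least 30, no strand, and fragments of several genes or places counted at each). HISAT2, SAMtools and mm10 are named in the submitters' processing notes, with tool versions not given in the sources used here. Symbols (for 53620 genes) came from a GENCODE vM21 table. Whether near-identical gene copies share reads was not tested.

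From these counts, genes were filtered with filterByExpr, scaled by TMM and fitted with 1 mean per group in edgeR 4.0.16 (robust quasi-likelihood F test, two-sided, R 4.3.3), a procedure tested on simulated data. Standard errors came from the F statistic. CPM was TMM-scaled, TPM used the deposited exon length, and log2 CPM had a prior count of 2. The members and lists were chosen with earlier results of these data known. Every member was named, with the 3 Polycomb genes of smallest p per genotype comparison outside them and the 3 nearest patterns of Ezh2, Scml2 and Bmi1; Hoxa4 and the genes given for their level were chosen by value. A few values that these rules would name are not reported here. Libraries of a group differed by more than sampling noise, so they were not merged and each counted as 1 replicate. Such a difference does not show that they came from separate animals. Intervals and limits for single libraries cover counting error only.

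The labels do not say that the replicate numbers pair libraries. Same-numbered libraries of Tet1KO and WT deviated together at 11 months (r = 0.371, 0.167 and 0.332) but not at 3 months (r = -0.589, -0.182 and 0.296). Same-numbered libraries of 11 and 3 months also had r above 0, at 0.0842, 0.474 and 0.0981 in Tet1KO and 0.174, 0.0573 and 0.129 in WT. Such r cannot show that libraries are paired. Treating the numbers as pairs at 11 months alone was an assumption made from the expression values. Alternatives were other scalings and filters, DESeq2 1.42.0, limma-voom (limma 3.58.1) with sample weights, only the compared groups, the replicate block, the code prefix as a covariate, mitochondrial and ribosomal protein genes left out, and libraries left out. The block within the libraries of 11 months was added after seeing the data.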

Additional observations from a re-analysis of the deposited data

How the results depend on the processing

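No member passed the adjusted threshold under any alternative run, while small differences changed direction under some. Depth limits Ring1 most, at 14 to 67 counts per library, and 3 libraries per group limit every member. The 108 direction changes among 1676 recomputed log2 fold changes of members and other named genes were of values that did not pass the threshold, and their cause was not tested. DESeq2 called 3 genes at 11 months, 2 at 3 months, 2 on the average and 7 between ages in Tet1KO, against 0 in edgeR, and limma-voom called 0.

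With library totals alone, log2 fold changes turned to 0.04 for Scml2 at 3 months, 0.02 for Suz12 on the genotype average, and 0.01 for both Ring1 and Rnf2 between ages in WT. With limma-voom and sample weights they turned to 0.09 for Ezh2, 0.05 for Suz12 and 0.11 for Scml2 at 3 months. On the genotype average they turned to 0.05 for Suz12, -0.07 for Ring1 and -0.05 for Cbx2. Between ages they turned to -0.04 for Ezh1 and 0.03 for Suz12 in WT and to -0.05 for Ezh2 and -0.07 for Bmi1 in Tet1KO, and in the interaction to -0.02 for Scml2. Without the 2 libraries that stood apart, they turned to -0.01 for Eed and 0.08 for Scml2 at 3 months, to -0.02 for Ring1 and -0.01 for Cbx2 on the average, to -0.05 for Eed between ages in WT, and to -0.08 for Ezh2, -0.01 for Suz12 and -0.06 for Bmi1 between ages in Tet1KO. The count of members at an unadjusted p under 0.05 between ages in WT was then 0, and the share of all genes in that fit is not given here. Ring1 between ages in WT turned to 0.02 with no filter, 0.07 with the prefix as a covariate and 0.01 without mitochondrial and ribosomal protein genes.

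With the replicate block no gene passed the threshold in any comparison, and the block changed no call. The block turned Ring1 on the genotype average to -0.01, and gave Cbx2 between ages in WT a log2 fold change of 0.67 (unadjusted p of 0.00998 in edgeR). Fitted to the libraries of 11 months alone, the block gave log2 fold changes of -0.19 for Cbx2 to 0.31 for Ring1 among the members, with no gene past the threshold.

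Leaving out 1 library at a time, log2 fold changes at 11 months ranged over -0.16 to 0.18 for Rnf2, -0.02 to 0.18 for Suz12, -0.11 to 0.13 for Jarid2 and -0.02 to 0.26 for Scml2. At 3 months they ranged over -0.07 to 0.15 for Bmi1, -0.27 to 0.16 for Ezh2, -0.23 to 0.13 for Suz12, -0.12 to 0.14 for Scml2, -0.05 to 0.14 for Eed, -0.06 to 0.17 for Rnf2 and -0.72 to 0.09 for Ring1. On the average they ranged over -0.10 to 0.13 for Cbx2, -0.08 to 0.10 for Suz12, -0.05 to 0.16 for Ezh2, -0.19 to 0.22 for Ring1, -0.06 to 0.11 for Rnf2, -0.09 to 0.01 for Eed and -0.01 to 0.13 for Scml2. Between ages in WT they ranged over -0.18 to 0.40 for Ring1, -0.05 to 0.14 for Eed, -0.01 to 0.13 for Ezh1, -0.29 to 0.06 for Ezh2, -0.17 to 0.19 for Suz12 and -0.14 to 0.10 for Rnf2. Between ages in Tet1KO they ranged over -0.08 to 0.28 for Ezh2, -0.01 to 0.25 for Suz12, -0.14 to 0.15 for Bmi1, -0.23 to 0.11 for Rnf2 and -0.25 to 0.05 for Scml2. In the interaction they ranged over -0.19 to 0.15 for Rnf2, -0.02 to 0.28 for Scml2, -0.24 to 0.02 for Jarid2, -0.06 to 0.31 for Suz12 and -0.05 to 0.27 for Bmi1. Members at an unadjusted p under 0.05 numbered 0 to 1 at 3 months and 0 to 2 between ages in WT. The share of all genes at such a p in these fits is not given here, so the counts cannot be set against it.

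Levels per kilobase and 1000000 TMM-scaled counts, which have another denominator than TPM, were 68.5 for Eed, 51.3 for Scml2, 44.3 for Bmi1, 44.0 for Suz12, 38.9 for Rnf2, 10.1 for Ezh2, 7.70 for Jarid2, 5.45 for Cbx2, 5.10 for Ezh1 and 0.856 for Ring1. Both measures use the same counts and exon lengths, so the order of genes within a library cannot differ between them. The shared order is therefore no check of the TPM order, and other lengths were not tried.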
